A study of Mus musculus with 26 samples.

Results

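The genes described are the axon guidance ligands and receptors of the mouse: the class 3 to 7 semaphorins with their neuropilin and plexin receptors, the ephrins with the Eph receptor kinases, Slit with Robo, and the netrins with Dcc and Unc5. They were chosen by gene symbol, as protein-coding genes of these families, and number 68 of 21887 protein-coding genes of the RefSeq gene table; 64 of them were named by at least 1 peak. The assay was ATAC-seq, in which a transposase cuts DNA that is not packed into nucleosomes, so that a peak of cuts marks open chromatin. The deposited data are 8 peak lists on the mm10 build, 1 for each combination of a cell type, the D1 or the D2 medium spiny neuron (MSN), and a treatment. SS was the baseline, SC acute cocaine, CS chronic cocaine followed by prolonged withdrawal, and CC cocaine relapse. The labels give the tissue as brain, the series title names the nucleus accumbens, and strain, age and the number of animals are not given in the sources used here. The groups held 2, 4, 4 and 4 libraries in D1 SS, SC, CS and CC, and 2, 1, 8 and 1 in the corresponding D2 groups. Where 4 values of a cell type are given together, they follow that order of treatments.

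Guidance molecules steer growing axons. A ligand on or released by a target cell binds a receptor on the growth cone, and the receptor acts on the actin cytoskeleton through small GTPases to attract or repel the axon. Several of these genes stay expressed in the adult brain, where ephrins, semaphorins and their receptors are known for roles at dendritic spines and synapses.

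Each group has 1 list and no value per library, so there is no replicate error and no test between groups: what follows is a description of these lists. The lists held 28579, 28321, 48469 and 77103 peaks in D1 and 61818, 58810, 27917 and 68444 in D2, and read totals are not in them. Counts of peaks on alternative assembly scaffolds split the lists into a set with 71 to 144 such peaks (the 3 cocaine lists of D1, and D2 CS) and a set with 4 to 7 (both SS lists, D2 SC, and D2 CC). Where 2 lists of different sets are compared, set and group cannot be told apart. All 6 markers of MSNs in general had a peak in every list. Adora2a, a D2 MSN marker, covered 0, 0, 0 and 494 bp in the D1 lists and 1567, 1279, 1244 and 1627 bp in the D2 lists. Drd2, which encodes the D2 dopamine receptor, covered 0, 518, 1585 and 2554 bp in D1 and 3992, 3938, 3159 and 6039 bp in D2. Penk, Gpr6 and Sp9 covered more in D2 in SS, SC and CC, but less in CS (615, 539 and 264 bp against 833, 746 and 499 bp in D1). The D1 MSN markers Drd1, Pdyn and Sfxn1 covered more in D1 for every treatment, Tac1 and Isl1 only in CS and CC. A peak was found at 4 or 5 of 5 D1 MSN markers in each D2 list, so markers of each type were open in lists of the other as well. Of 28 markers of glia, vessels, interneurons and cortical neurons, 10, 8, 16 and 22 had a peak in the D1 lists (summed length 5647 to 20743 bp) and 15, 12, 10 and 16 in the D2 lists (5241 to 16042 bp). These counts move with list length, and their part in the results was not tested. Each library holds many nuclei, so an element open in fewer nuclei and one less open in each cannot be told apart.

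In each full list more than 50% of the guidance genes had an open promoter, a larger share than of protein-coding genes at large, by a gap that depended on the list and on gene length. A promoter peak is a peak that the authors assigned to the gene within 1 kb of a transcription start site. In the D1 lists 37, 49, 58 and 60 of the 68 genes had one, beside 38.9, 44.9, 51.2 and 53.5% of all protein-coding genes. In the D2 lists 50, 55, 49 and 55 had one, beside 49.0, 47.5, 46.2 and 49.2% of all genes. In percent, the guidance genes stood between 54.4% in D1 SS and 88.2% in D1 CC. The order of the lists was another when only the 27917 strongest peaks of each were kept, with counts of 36, 49, 44 and 42 in D1 and 37, 36, 49 and 34 in D2. The share of all genes was not counted at that length, so whether the gap held there was not tested. Among genes of at least 100 kb, 22 of 32 guidance genes had a promoter peak in D1 SS (68.8%, against 63.1% of all genes of that length), and 31 in D1 CC (96.9% against 80.7%). Among shorter genes the counts were 15 of 36 in D1 SS (41.7% against 35.9%) and 29 in D1 CC (80.6% against 50.1%). The smallest gaps were thus those of D1 SS. Over the 8 lists together, 31 genes had a promoter peak in every list, 33 in some, and 4 in none. Among all protein-coding genes 34.6% had one in every list, 23.7% in some and 41.6% in none, so the guidance genes differed most in the share with none (5.88%). By strength the promoter peaks of guidance genes lay below the median of all promoter peaks in every list. Their median fold enrichment, the authors' ratio of a peak over its local background, was 4.49, 5.63, 4.23 and 4.52 in the D1 lists against 5.0, 6.78, 5.65 and 5.77 for all promoter peaks, and 4.27, 4.26, 4.77 and 4.25 in the D2 lists against 5.47, 5.85, 5.90 and 5.40. The fold is not scaled between lists and is used only within one.

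**Figure D1:**
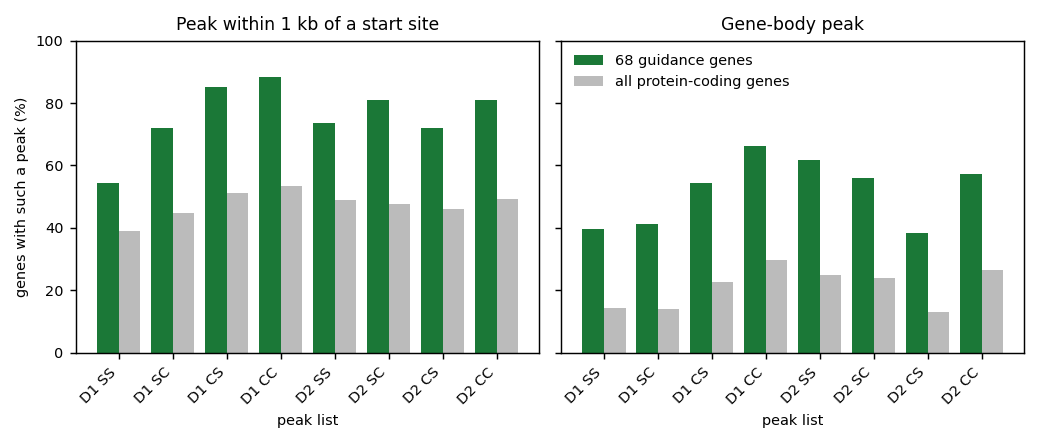
Share of genes (%) with a peak within 1 kb of a start site (left) and with a gene-body peak (right), for the 68 guidance genes (green) and all protein-coding genes (grey) in each of the 8 peak lists. The green bars stand above the grey ones in all lists, from 54.4 to 88.2% at promoters.

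The 4 genes to which no peak of any kind was assigned in any list were Sema3g, a secreted semaphorin known from blood vessels, Robo4, the Robo receptor of endothelial cells, Efna4, an ephrin-A, and Epha2, an Eph receptor best known from epithelia. Within 5 kb of the gene, whatever gene a peak was assigned to, Sema3g had 204 to 987 bp in 5 lists and Efna4 had 227 and 457 bp in D1 CS and CC, while Epha2 and Robo4 had no peak in any list. Promoter sequences of 58 of the genes were in the RefSeq table (GRCm38.p6, the assembly of mm10), with 74 start sites and, for each, the 250 bases before and 50 after the start. The sequences below contrast genes with a peak over the shown start in all lists (Sema4f, Slit3) with genes that have none (Sema3g, Efna4, Epha2), and Unc5c is shown because its start is shared with another transcript. Each is the 250 bases before the start, read 5′ to 3′ on the strand of the gene, and capitals mark GC boxes (GGGCGG), AP-1 sites (TGANTCA) and cyclic AMP response elements (TGACGTCA) on both strands, overlapping matches included. The windows of Epha5 and Slit2, the genes with the highest and the lowest median promoter fold among those with a promoter peak in every list, and that of Robo4 lie partly or wholly inside the annotated span of the gene and are not printed. Sema4f, Slit3 and Unc5c were chosen after the values were seen. The positions are chr6:82939770-82940019 (minus strand) for Sema4f, chr11:35121206-35121455 (plus) for Slit3, chr14:31217623-31217872 (plus) for Sema3g, chr3:89338029-89338278 (minus) for Efna4, chr4:141300971-141301220 (plus) for Epha2 and chr3:141465314-141465563 (plus) for Unc5c.
Sema4f: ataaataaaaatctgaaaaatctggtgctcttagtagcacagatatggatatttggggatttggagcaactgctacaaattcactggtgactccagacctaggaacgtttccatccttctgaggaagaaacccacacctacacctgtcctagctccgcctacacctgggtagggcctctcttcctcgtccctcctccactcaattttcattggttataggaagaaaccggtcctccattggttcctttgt
Slit3: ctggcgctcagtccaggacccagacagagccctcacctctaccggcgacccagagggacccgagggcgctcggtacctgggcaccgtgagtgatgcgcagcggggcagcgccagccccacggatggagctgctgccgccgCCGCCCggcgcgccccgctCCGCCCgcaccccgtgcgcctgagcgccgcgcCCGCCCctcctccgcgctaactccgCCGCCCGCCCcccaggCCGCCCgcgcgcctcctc
Sema3g: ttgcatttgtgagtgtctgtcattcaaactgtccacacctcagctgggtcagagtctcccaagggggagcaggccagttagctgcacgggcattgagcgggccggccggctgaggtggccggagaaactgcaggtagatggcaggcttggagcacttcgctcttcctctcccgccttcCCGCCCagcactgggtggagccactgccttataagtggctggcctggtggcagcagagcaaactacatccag
Efna4: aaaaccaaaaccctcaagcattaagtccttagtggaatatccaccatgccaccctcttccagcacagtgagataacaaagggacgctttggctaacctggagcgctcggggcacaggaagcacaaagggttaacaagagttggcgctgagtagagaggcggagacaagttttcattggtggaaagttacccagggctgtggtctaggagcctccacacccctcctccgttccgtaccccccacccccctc
Epha2: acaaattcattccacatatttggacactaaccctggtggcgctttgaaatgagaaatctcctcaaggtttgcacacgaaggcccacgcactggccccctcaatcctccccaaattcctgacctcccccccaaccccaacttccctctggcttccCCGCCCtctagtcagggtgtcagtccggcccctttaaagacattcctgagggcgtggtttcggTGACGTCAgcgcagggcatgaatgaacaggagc
Unc5c: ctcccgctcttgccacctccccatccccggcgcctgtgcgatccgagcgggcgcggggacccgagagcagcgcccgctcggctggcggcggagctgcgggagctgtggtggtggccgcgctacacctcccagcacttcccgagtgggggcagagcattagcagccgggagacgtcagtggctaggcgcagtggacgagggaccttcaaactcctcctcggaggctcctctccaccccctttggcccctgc

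Open promoters of guidance genes came with very different base compositions. The window of Slit3 had a GC content of 78.3%, 41 CG dinucleotides and 6 GC boxes, while that of Sema4f had 48.7%, 7 CG and no GC box, and both starts lay under a peak in all 8 lists, with folds of 5.29 to 7.32 at Slit3 and 7.81 to 10.6 at Sema4f. Over the 74 windows, those under a peak in all 8 lists (27) had a median GC content of 66.3% and a median of 25 CG, those under a peak in 1 to 7 lists (30) had 67.2% and 22, and those under no peak (17) had 55.7% and 6. Among all protein-coding genes the same medians were 63.3% and 24, 60.0% and 17, and 48.0% and 3. A GC box stood in 70.3% of the windows of guidance genes and in 46.2% of all windows, also in 52.9% of the guidance windows with no peak against 17.1% of all windows with none. An AP-1 motif was found in 3 guidance windows (4.05%, against 6.99% of all) and a cyclic AMP response element in 1 (1.35% against 2.23%), that of Epha2 printed above. A match is a description of the letters and not of binding.

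The gene that a peak is assigned to mattered for some promoters. Unc5c, a netrin receptor, had a promoter peak by the authors' assignment in 3 lists, but a peak over its start site in all 8, with folds of 6.73, 7.10, 6.08 and 6.27 in the D1 lists and 6.54, 6.80, 5.59 and 5.71 in the D2 lists. In 5 lists that peak was assigned to Gm15688, an adjoining transcript. Epha6 lost its start-site peak in the same way to Gm9017 in D1 CC, D2 SS and D2 CC, Epha4 to Gm28386 in D2 SS, and Sema4c to D430040D24Rik in D1 CC. At Plxnb2 the peak over the start had no gene assigned in 5 lists. Counted by position, as any peak centred within 1 kb of a RefSeq start, 33 guidance genes had a promoter peak in all 8 lists, 27 in some and 8 in none, and these 5 genes all came to 8 lists. In D1 SS that was 35 of 68 genes (51.5%, against 45.2% of 17492 genes with a start in the RefSeq promoter table), and in D1 CC 59 (86.8% against 59.9%). That promoter table held 58 of the 68 guidance genes, and for the rest the 5′ end of the gene served as the start. The sets compared are thus not fully alike. Sema3a, Slit1, Robo3 and Sema3b stood the other way round, with promoter peaks in 8, 6, 7 and 1 lists by assignment and none at the RefSeq start used.

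Beyond promoters, guidance genes were rich in open elements inside the gene, and gene length went with their number. A gene-body peak was assigned to 27, 28, 37 and 45 of the 68 genes in the D1 lists (14.1, 14.0, 22.5 and 29.6% of all genes) and to 42, 38, 26 and 39 in the D2 lists (24.8, 23.8, 12.9 and 26.6% of all genes). These peaks made up 46.4 to 77.4% of the peaks of guidance genes in a list, against 30.7 to 58.3% for all protein-coding genes. Across the 68 genes, Spearman's rho of gene length with the median number of gene-body peaks over the lists was 0.894, a description over genes that share the same lists. Split at 100 kb, the 32 longer genes had a gene-body peak in 24, 24, 30 and 32 cases in D1, beside 63.9, 59.9, 77.9 and 87.7% of all genes of that length, and in 31, 30, 22 and 31 cases in D2, beside 84.3, 82.8, 56.7 and 86.0%. In percent the longer guidance genes stood at 75.0% in D1 SS and 100.0% in D1 CC. For the 36 shorter genes the counts were 3, 4, 7 and 13 in D1, beside 7.92, 8.22, 15.6 and 22.3% of all genes of that length, and 11, 8, 4 and 8 in D2, beside 17.4, 16.5, 7.46 and 19.2%. The wide gap over all lengths was thus smaller within each length class.

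**Figure D2:**
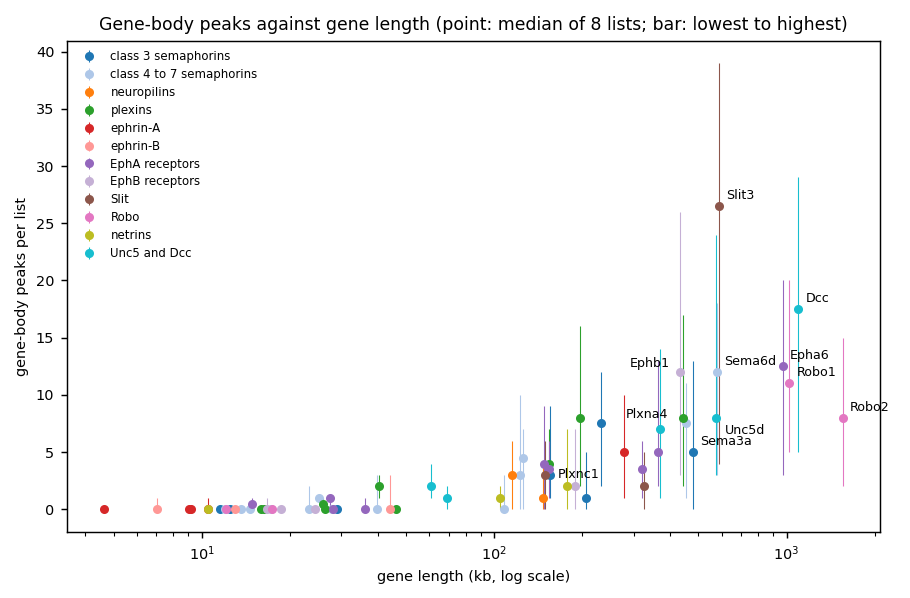
Gene-body peaks assigned to the gene per list against gene length (kb, log scale) for the 68 guidance genes, coloured by subfamily. Points are medians over the 8 lists and bars run from the lowest to the highest list; Slit3, with a median of 26.5 peaks, stands above longer genes such as Robo2, with 8.

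Covered length, the summed width of the peaks assigned to a gene, is given next by subfamily, ligands before their receptors. It grows with gene length and with the length of the list, and levels of different genes are set side by side only per 10 kb of gene.

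Among the 7 class 3 semaphorins, which are secreted and mostly repel axons, 4 had a promoter peak in every list. Sema3e, the ligand of plexin D1 and the member with the highest median covered length (4491.5 bp), covered 2993, 1271, 2645 and 5990 bp in the D1 lists and 8192, 7434, 1382 and 7507 bp in the D2 lists. Its lowest values were in D1 SC and D2 CS, the shortest lists. Sema3a, a classic repellent that acts through neuropilin 1, covered 1742, 563, 1381 and 4430 bp in D1 and 6790, 6930, 489 and 8106 bp in D2. The 3 long D2 lists stood above all D1 lists, and D2 CS stood below them. Sema3c and Sema3d had peaks in all lists, with ranges of 1291 to 5616 bp and 564 to 2165 bp. Sema3f, the ligand of neuropilin 2, had no peak in D1 SC and 430 to 1666 bp elsewhere. Sema3b was assigned 1 peak, of 277 bp in D2 CC, while peaks inside the gene or within 5 kb of it, whatever gene they were assigned to, covered 535 to 1148 bp in each of the 8 lists.

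The 13 semaphorins of classes 4 to 7 are bound to the membrane, and all of them had a promoter peak in at least 3 lists, 6 of them in every list. Sema6d, the member with the highest median covered length (8495.5 bp), covered 4682, 2315, 6046 and 11958 bp in D1 and 11488, 10945, 2585 and 13171 bp in D2. Sema4f was the steadiest, with a single promoter peak in each list of 631, 679, 730 and 865 bp in D1 and 731, 746, 708 and 844 bp in D2. That peak was the strongest guidance peak in both CC lists, with a fold of 10.6 in each. Sema4g, at the other end, had 200 bp in D1 CS, D1 CC and D2 SC and no peak elsewhere. Sema4d, a ligand of plexin B1, covered 0, 399, 2098 and 3961 bp in D1 and 1327, 1202, 797 and 1559 bp in D2. Sema5b covered 0, 834, 1631 and 5429 bp in D1 and 1655, 1288, 325 and 3394 bp in D2. Sema6b covered 0, 732, 1251 and 1800 bp in D1 and 1095, 771, 201 and 943 bp in D2. Sema4d, Sema5b and Sema6b thus shared the absence of any peak in D1 SS. Sema4c covered 200, 1057, 876 and 0 bp in D1 and 1324, 1116, 837 and 1377 bp in D2, and the 0 in D1 CC is the reassigned peak described above. Sema5a and Sema6a were covered in all lists, over 666 to 6530 bp and 768 to 5147 bp. The shorter genes Sema4a, Sema4b, Sema6c and Sema7a also had peaks in every list, with ranges of 412 to 2856, 447 to 2677, 265 to 797 and 261 to 1375 bp.

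Their receptors divided by subtype. Nrp1, the co-receptor that binds Sema3a, had no peak in D1 SS, D1 SC or D2 CS, and covered 1500 and 3205 bp in D1 CS and CC and 1298, 1050 and 2702 bp in D2 SS, SC and CC. Nrp2 had a promoter peak in every list and covered 785, 985, 1845 and 3990 bp in D1 and 3631, 3551, 1035 and 3969 bp in D2. The difference between the 2 neuropilins lay in the short lists, where only Nrp2 had peaks. Of the 9 plexins, the receptors that carry the semaphorin signal into the cell, Plxna1, Plxna2 and Plxnc1 had a promoter peak in all lists. Plxna2 had the highest median covered length (4977.5 bp), with 2222, 2330, 4087 and 8296 bp in D1 and 6579, 5868, 2541 and 7418 bp in D2. Plxnc1 covered 3286, 2705, 4291 and 7289 bp in D1 and 5305, 4993, 2607 and 5792 bp in D2. The X-linked genes Plxna3 and Plxnb3 were open in D1 lists alone: Plxna3 covered 297, 612 and 705 bp in D1 SC, CS and CC, Plxnb3 covered 269 and 296 bp in D1 CS and CC, and neither had a peak in D1 SS or any D2 list. All 3 of those D1 lists belong to the set rich in scaffold peaks. Plxnb1 covered 0, 0, 204 and 1167 bp in D1 and 1021, 492, 0 and 1118 bp in D2. The remaining plexins ranged over 241 to 1787 bp (Plxna1), 1278 to 8979 bp (Plxna4) and 479 to 2006 bp (Plxnd1), and Plxnb2 ranged up to 1016 bp, with none assigned in D2 CS.

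Ephrins, the membrane ligands of the Eph receptors, were mostly short genes with a promoter peak and little else. Efna5, a long exception of 278 kb, had the highest median covered length of the 5 ephrin-A genes (3583.5 bp) and covered 727, 1735, 2434 and 5390 bp in D1 and 5675, 4733, 943 and 6731 bp in D2. Efna3 had a promoter peak in every list and 257 to 1149 bp. Its median of 917 bp per 10 kb of gene was the highest density of the 68 genes by assigned peaks. Efna1 covered 0, 205, 711 and 586 bp in D1 and 289 bp in D2 CC, with no peak in the other D2 lists. Efna2 lacked a peak in D1 SS and ranged up to 1165 bp. Of the 3 ephrin-B genes, which are transmembrane proteins, Efnb1 and Efnb2 had a promoter peak in all lists, with 426 to 1063 bp at Efnb1, and Efnb2 covered 848, 1091, 1271 and 2008 bp in D1 and 1884, 1146, 996 and 2304 bp in D2. Efnb3 covered 0, 200, 1118 and 636 bp in D1 and 469 bp in D2 CC, with no peak in the other D2 lists.

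The 9 EphA receptors, kinases that mainly bind ephrin-A ligands, included the strongest guidance peak of 5 lists. Epha5, one of the main EphA receptors of the forebrain, had promoter folds of 9.59, 10.3, 9.62 and 8.33 in D1 and 8.92, 10.0, 11.6 and 8.15 in D2. Its median percentile among promoter peaks of a list was 92.7, and the peak was the strongest guidance peak in D1 SS and D2 CS. Epha3 stood at percentile 93.5 with promoter folds of 7.67 to 10.5, the strongest guidance peak of D1 CS among them, and an element 6.92 kb into the gene (chr16:63856648-63857863) was open in all 8 lists with folds of 8.20, 9.26, 8.81 and 9.98 in D1 and 11.5, 11.6, 10.6 and 9.72 in D2. That element was the strongest guidance peak in D2 SS and D2 SC. Epha6, the member with the highest median covered length (7296 bp), covered 3320, 2584, 5615 and 8977 bp in D1 and 8977, 10718, 1860 and 9963 bp in D2. Epha10, a receptor without kinase activity, covered 0, 219, 1129 and 1468 bp in D1 and 1238, 470, 259 and 1148 bp in D2. Epha1 had peaks in 4 lists only, of 662 bp in D1 CC and 527, 565 and 770 bp in D2 SS, SC and CC. Epha4 and Epha7 had peaks in every list, over 605 to 4454 and 1725 to 5635 bp, and Epha8 had none in D1 SS and 269 to 1183 bp elsewhere. The 5 EphB receptors bind ephrin-B. Ephb1, the highest of them by median (6583 bp), covered 1812, 3144, 6365 and 13458 bp in D1 and 7863, 6801, 2396 and 9657 bp in D2, whereas Ephb4, the EphB receptor of veins, had a single peak of 208 bp, in D1 CC. Ephb2 covered 295, 837, 2214 and 3463 bp in D1 and 1870, 1414, 211 and 2565 bp in D2, and Ephb3 covered 289, 1269, 1556 and 1673 bp in D1 and 901, 425, 417 and 961 bp in D2. Ephb6, a receptor without kinase activity, ranged over 796 to 1914 bp.

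The Slit proteins are secreted repellents of the Robo receptors, and Slit3 covered 6543, 4380, 11394 and 19419 bp in D1 and 17619, 16851, 2661 and 22465 bp in D2. It held 12, 9, 23 and 36 gene-body peaks in D1 and 30, 32, 4 and 39 in D2, with the lowest number in D2 CS. Its median of 4.51 gene-body peaks per 100 kb was second to that of Plxnd1 (4.93), with Plxna2 (4.06) and Sema4a (3.96) next, and Unc5d, of nearly the same length, had 1.40. Its strongest promoter peak lay at an internal start 57.0 kb into the gene (chr11:35177937-35178928), with folds of 7.78 to 10.6, and was the strongest guidance peak in D1 SC. Slit1 covered 0, 347, 1810 and 3878 bp in D1 and 2146, 1842, 1377 and 2372 bp in D2, and Slit2 covered 200, 444, 1571 and 3344 bp in D1 and 4773, 3907, 686 and 4445 bp in D2. Both had their lowest value in D1 SS. Of their receptors, Robo1 covered 4015, 3587, 4955 and 9011 bp in D1 and 10592, 9604, 3326 and 11006 bp in D2. Robo2, the longest of the 68 genes at 1555 kb, covered 3788, 1077, 3518 and 5369 bp in D1 and 7385, 7417, 1964 and 9266 bp in D2. By assigned peaks it had the lowest density of the genes with a peak in every list, 29.4 bp per 10 kb. Many peaks in both genes were not assigned to them. Inside the gene or within 5 kb, all peaks together covered 5883 to 27639 bp at Robo1 and 2419 to 23973 bp at Robo2. The rank of Robo2 thus holds for assigned peaks only. Robo3, a receptor known from commissural axons, had 201 to 1263 bp in 7 lists and no peak in D2 CS.

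No netrin had a promoter peak in all lists, whereas 3 of the 5 netrin receptors did. Ntn1, the attractant of commissural axons, covered 524, 0, 1776 and 4275 bp in D1 and 1021, 436, 507 and 1602 bp in D2. Ntn4 covered 318, 0, 869 and 1309 bp in D1 and 756, 703, 738 and 435 bp in D2, and Ntn5 covered 0, 200, 610 and 549 bp in D1 and 0, 370, 246 and 469 bp in D2. D1 SC was the list without peaks at Ntn1 and Ntn4. The receptor Dcc, which mediates attraction to netrin 1, had the highest median of its group (9488 bp) and covered 3238, 2592, 4951 and 14257 bp in D1 and 14025, 14039, 2628 and 16218 bp in D2. Unc5d, a repulsive netrin receptor, covered 2431, 1556, 2622 and 6796 bp in D1 and 11677, 11015, 2226 and 13461 bp in D2. In Unc5d the longest list of all, D1 CC, stood below the 3 long D2 lists. Unc5a, Unc5b and Unc5d had a promoter peak in every list, and Unc5b, the lowest of the group by median (1085 bp), covered 558, 608, 779 and 2357 bp in D1 and 1250, 1541, 920 and 1790 bp in D2. Unc5a was covered over 1035 to 3877 bp. Unc5c covered 2700, 2099, 1193 and 6719 bp in D1 and 7089, 6936, 1379 and 7980 bp in D2 by assignment, without the promoter where that was assigned to Gm15688.

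**Figure D3:**
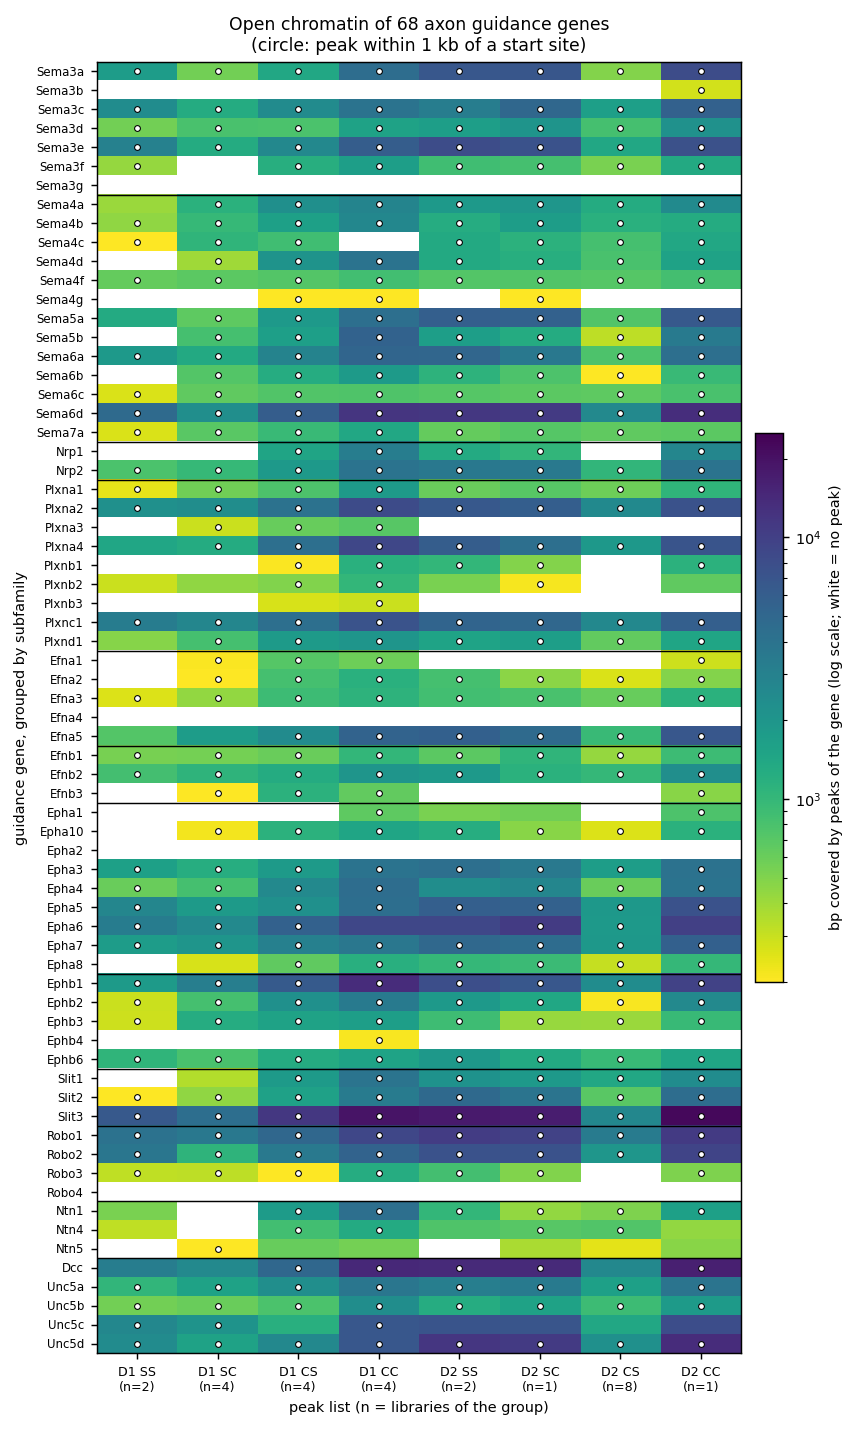
Covered length (bp, log scale, white for no assigned peak) of the 68 guidance genes (rows, grouped by subfamily) in the 8 peak lists (columns, with the number of libraries). Circles mark a promoter peak; Slit3, Dcc and Sema6d are dark in the 4 longest lists, and Sema3g, Efna4, Epha2 and Robo4 are white throughout.

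For comparisons between lists, the covered length of a gene was divided by the total over all protein-coding genes of its list, brought back to bp, and compared as the log2 ratio of covered shares after 200 bp were added to each. A difference of 2-fold on that scale was used as the threshold for naming genes, and for a gene with no peak in one of the lists the bp are given, since its ratio depends on the 200 bp added. The SC, CS and CC lists of a cell type were all compared with the same SS list.

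Few guidance genes differed between acute cocaine and baseline in D2 MSNs, as was so for genes at large. Between D2 SC and D2 SS, of the same scaffold set but with 1 library in SC, 33 genes were higher and 25 lower of 58 with a peak, with a median log2 ratio of 0.02 against 0.03 for all genes. Past 2-fold, 2 were higher (3.46% of all genes) and 1 lower (5.77% of all genes). The higher genes were Ntn5 (370 bp against none) and Sema4g (200 bp against none), each a single small peak, and the lower one was Epha10 (470 against 1238 bp). With both lists reduced to the 27917 strongest peaks, 4 were higher (5.21% of all genes) and 5 lower (7.80% of all genes). Neither Ntn5 nor Sema4g was among the 4.

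Cocaine relapse in D2 MSNs gave a like picture. Between D2 CC and D2 SS, 36 of 60 genes were higher and 24 lower, with a median log2 ratio of 0.04 against −0.05 for all genes. The 4 genes past 2-fold higher (4.75% of all genes) were Ntn5, Efnb3, Efna1 and Sema3b, with 469, 469, 289 and 277 bp against none, and 0 were 2-fold lower (3.91% of all genes). With both lists at that length 4 were higher (5.58% of all genes) and 7 lower (7.41% of all genes). None of the 4 genes named stayed past 2-fold.

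After withdrawal from chronic cocaine, more guidance genes had a lower than a higher covered share in D2 MSNs, mainly among genes of at least 100 kb, as for all genes of that length. Between D2 CS and D2 SS, lists of different scaffold sets and of 27917 and 61818 peaks, 35 of 57 genes were lower and 22 higher, with a median log2 ratio of −0.51 against 0.28 for all genes. Past 2-fold, 20 were lower (16.8% of all genes) and 1 higher, Ntn5 (7.23% of all genes). Nrp1, Plxnb1 and Robo3 had 1298, 1021 and 852 bp in D2 SS and no peak in D2 CS, and Epha1 had 527 bp and none. Plxnb2 had 533 bp in D2 SS and none assigned in D2 CS, but the peak over its start had no gene in both lists. Within 5 kb of Plxnb2, whatever gene a peak was assigned to, 1422 and 690 bp were covered, which is not past 2-fold. Of the lower genes with peaks in both lists, Sema3a had the lowest log2 ratio, −2.47 (489 against 6790 bp). The ratio was −1.76 for Sema5a, −1.64 for Slit3 and −1.61 for Ephb2. Of 32 guidance genes of at least 100 kb, 25 were lower and 15 of them 2-fold (27.5% of all genes of that length), with a median of −0.81 against −0.46 for all. Of 25 shorter ones 10 were lower and 5 of them 2-fold (14.6% of all shorter genes), with a median of 0.10 against 0.42. At equal list length 12 were lower (8.37% of all genes) and 10 higher (17.0% of all genes), with a median of −0.14 against 0.16. Of the lower genes, 7 passed under every alternative: Dcc, Sema3a, Sema3e, Sema5a, Sema6a, Slit3 and Unc5d.

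In D1 MSNs the 3 cocaine lists belong to the other scaffold set than D1 SS, and D1 SS was among the shortest lists. Between D1 SC and D1 SS, of nearly equal length, 32 of 57 genes were higher and 25 lower, with a median of 0.20 against 0.04. Past 2-fold, 10 were higher (15.1% of all genes) and 7 lower (7.57% of all genes). Higher were Sema5b, Sema6b, Sema4d, Slit1, Plxna3, Epha8 and Epha10, with 834, 732, 399, 347, 297, 269 and 219 bp against none, as well as Sema4c (log2 ratio 1.57), Ephb3 (1.50) and Sema4a (1.05). Lower were Ntn1, Sema3f and Ntn4, with 524, 430 and 318 bp in D1 SS and no peak in D1 SC, as well as Robo2 (log2 ratio −1.75), Sema3a (−1.45), Sema3e (−1.23) and Sema6d (−1.07). The higher genes had a median length of 26.3 kb and the lower ones of 231 kb. Robo2 alone stayed past 2-fold under every alternative.

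Between D1 CS and D1 SS, 35 of 61 genes were higher and 26 lower, with a median of 0.49 against −0.02, and 18 were 2-fold higher (22.7% of all genes) and 3 lower (3.94% of all genes). Sema4d, Slit1, Sema5b and Nrp1, with 2098, 1810, 1631 and 1500 bp against none, stayed higher under every alternative. The 3 lower genes were Unc5c (−1.85), whose promoter peak was assigned elsewhere in D1 CS, Epha5 (−1.10) and Sema3a (−1.08), and of these Unc5c passed under every alternative. Between D1 CC and D1 SS, 42 of 63 were higher and 21 lower, with a median of 0.49 against −0.01. Past 2-fold were 23 higher (28.4% of all genes) and 1 lower (7.03% of all genes), Sema4c, the reassigned peak. The highest were again Sema5b, Sema4d, Slit1 and Nrp1, with 5429, 3961, 3878 and 3205 bp against none, and Ephb2, Sema4d, Sema5b, Sema6b and Slit1 passed under every alternative. At equal list length, 11 were higher and 7 lower in CS (17.7 and 7.12% of all genes), with a median of −0.01. In CC 11 were higher and 4 lower (16.8 and 6.22% of all genes), with a median of −0.07. The shift of the median was thus not seen at equal length.

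D1 CC and D1 CS are of the same scaffold set. There 41 of 63 genes were higher in CC and 22 lower, with a median of 0.14 against −0.16 for all genes. Past 2-fold were 5 higher, Epha1, Unc5c, Robo3, Plxnb1 and Sema5b (8.83% of all genes), and 2 lower, Sema4c and Efnb3 (3.2% of all genes). For Unc5c and Sema4c the promoter peak was assigned to another transcript in CS and in CC, respectively. The ratios were 1.73 for Unc5c, 1.44 for Robo3, 1.33 for Plxnb1 and 1.03 for Sema5b, while Epha1 had 662 bp against none. Efnb3 had a ratio of −1.17 (636 against 1118 bp), which turned to 0.27 with a q-value of at most 1e-05. None of these passed under every alternative.

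**Figure D4:**
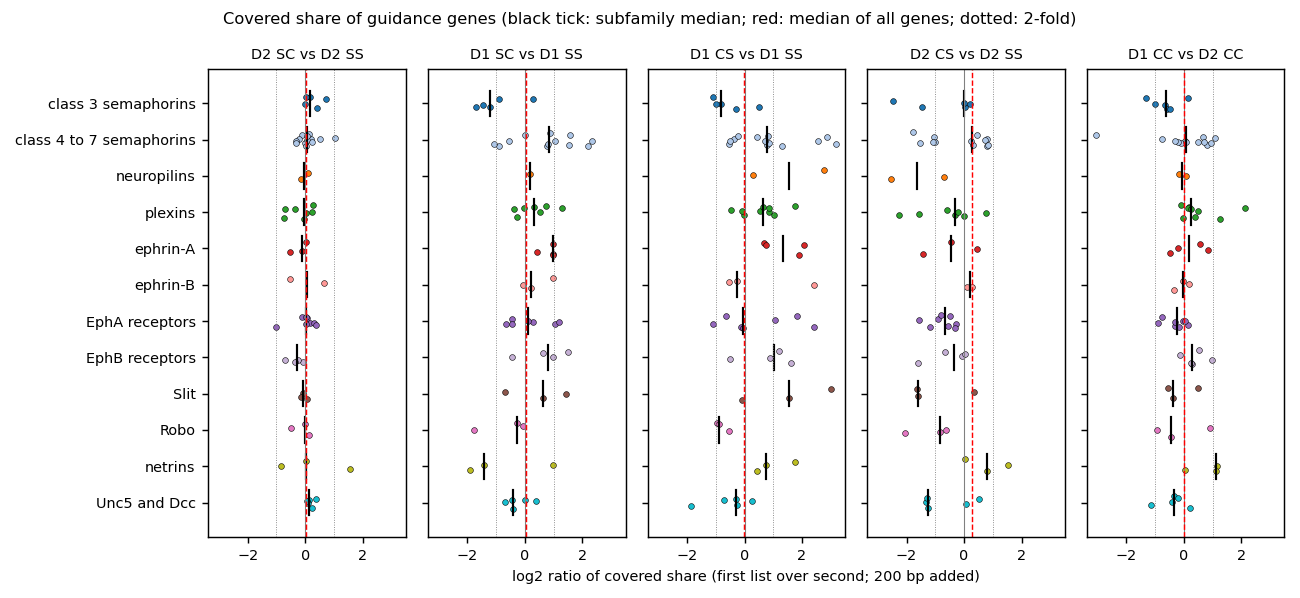
Log2 ratios of covered share for the guidance genes in 5 comparisons of peak lists, by subfamily, with 200 bp added to each value. Black ticks are subfamily medians, the red dashed line is the median of all genes (0.28 for D2 CS against D2 SS, 0.03 for D2 SC against D2 SS), and dotted lines mark 2-fold; in D2 SC all points but those of Ntn5, Sema4g and Epha10 lie within 2-fold, and those of D2 CS reach below −2, with −2.47 for Sema3a.

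Between the cell types, more guidance genes had a lower than a higher covered share in D1 at baseline and after acute cocaine, more had a higher one after withdrawal, and the numbers were equal after relapse. Between D1 SS and D2 SS, of the same scaffold set but with 28579 and 61818 peaks, 44 of 56 genes were lower in D1 and 12 higher, with a median of −0.34 against 0.09. No gene was 2-fold higher (2.84% of all genes) and 15 were 2-fold lower (21.3% of all genes). Among them, Slit1, Sema5b, Sema4d and Nrp1 had 2146, 1655, 1327 and 1298 bp in D2 SS and no peak in D1 SS, and the log2 ratio was −2.79 for Slit2, −1.63 for Efna5 and −1.05 for Unc5d. Reduced to equal length, 7 were lower and 6 higher (9.82 and 8.39% of all genes), with a median of −0.15 against 0.09. Efna5, Sema5b, Slit1 and Slit2 passed under every alternative. Between D1 SC and D2 SC, of different sets, 40 of 61 were lower and 21 higher, with a median of −0.39 against 0.29. Past 2-fold were 16 lower (15.5% of all genes) and 5 higher (7.09% of all genes). Of 32 guidance genes of at least 100 kb, 29 were lower and 13 of them 2-fold (26.1% of all genes of that length). Their median was −0.80 against −0.42 for all genes of that length. Of 29 shorter ones 11 were lower and 3 of them 2-fold (13.2% of all shorter genes), with a median of 0.14 against 0.42. The log2 ratio was −2.43 for Sema3a, −1.92 for Sema5a, −1.81 for Unc5d and −1.73 for Robo2, and Nrp1 and Sema3f had no peak in D1 SC. Higher were Ephb3, by 1.96, and Plxnb2, by 1.22 (but −0.86 with a q-value of at most 1e-05), with Plxna3, Efna1 and Efnb3 (297, 205 and 200 bp against none). At equal list length 12 were higher (18.03% of all genes) and 8 lower (8.58% of all genes). Those 8 were among the 16: Dcc, Robo2, Sema3a, Sema3e, Sema5a, Sema6d, Slit2 and Unc5d. They passed under every alternative, as did Ephb3 among the higher genes.

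Between D1 CS and D2 CS, of the same set but with 48469 and 27917 peaks, 37 of 61 genes were higher in D1 and 24 lower, with a median of 0.38 against −0.14. Past 2-fold were 13 higher (14.3% of all genes) and 0 lower (3.54% of all genes). Nrp1, Efnb3, Efna1 and Plxna3 had 1500, 1118, 711 and 612 bp in D1 CS and no assigned peak in D2 CS. Ephb2 was higher by 2.03 and Slit3 by 1.31. Plxnb2 had 499 bp in D1 CS and none assigned in D2 CS, where the peak over its start had no gene. Within 5 kb of Plxnb2, whatever gene a peak was assigned to, 1432 and 690 bp were covered, which is not past 2-fold. Reduced to equal length, 6 were higher and 5 lower (8.65 and 8.58% of all genes), and Nrp1 and Slit3 passed under every alternative. Between D1 CC and D2 CC, the longest lists, of different sets, 32 were higher and 32 lower, with a median of 0.01 against 0.01. Past 2-fold were 5 higher, Plxna3, Plxnb3, Ntn1, Ntn4 and Sema4d (11.4% of all genes), and 4 lower, Sema4c, Sema3b, Unc5d and Sema3a (3.85% of all genes). Ntn1 was higher by 1.15 (4275 against 1602 bp), Ntn4 by 1.12 and Sema4d by 1.08, and Plxna3 and Plxnb3 had no peak in D2 CC. The ratio was −1.13 for Unc5d (6796 against 13461 bp) and −1.01 for Sema3a, while Sema3b had no assigned peak in D1 CC and the peak of Sema4c was the reassigned one. Unc5d passed under every alternative. The equal-length counts were 10 higher and 6 lower (16.2 and 5.81% of all genes).

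Merged over the lists, the peaks of guidance genes formed 639 regions: 102 at promoters, 499 in gene bodies and 38 between 1 and 3 kb from a start. In all 8 lists stood 80 regions (12.5%, against 23.8% of 53788 regions of all protein-coding genes), 38 of them promoters and 38 in gene bodies. The share in all lists was 37.3% of promoter regions, against 55.4% for all genes, and 7.62% of gene-body regions, against 9.44%. In 1 list alone stood 188 regions, of which 77 came from D1 CC and 54 from D2 CC, the longest lists. That is 29.4%, against 25.4% of the regions of all protein-coding genes. Slit3 had the most regions, 51, followed by Dcc with 43, Ephb1 with 34 and Unc5d with 30. By subfamily, 14 of 87 EphA regions, 5 of 72 Slit regions and 0 of 14 netrin regions were in all 8 lists. The elements shared by all lists lay far inside genes as well: in Unc5d at 17.7 and 339 kb from the 5′ end (chr8:29201568-29202419 and chr8:28880329-28881243), with folds up to 9.19 in D1 CS, and in Unc5c at 354 kb (chr3:141818791-141819768), with folds of 5.99 to 9.98.

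No region stood in all 4 lists of a cell type and none of the other, a pattern that 16 of the 53788 regions of all genes had (all of them in D2). The only region to follow the scaffold sets was an element of Sema3a (chr5:13600389-13600998), present in both SS lists, D2 SC, and D2 CC with folds of 3.69, 4.43, 4.68 and 3.85. Of all 53788 regions, 105 had that pattern, so that 1 of 639 is near the background. A looser pattern, defined after the data were seen, asked for the longer lists only. In D2 SS, SC and CC and no D1 list stood 35 regions of 17 guidance genes (5.48%, against 2.65% of the regions of all protein-coding genes), 34 of them in gene bodies. In D1 CS and CC and no D2 list stood 8 regions of 8 genes (1.25% against 2.64%). Among gene-body regions alone the shares were 6.81% against 3.79% for the first pattern and 1.00% against 2.58% for the second. The 17 genes of the first pattern were all longer than 100 kb, and the shares of all genes were not matched for gene length. The first group held 6 regions of Unc5d, 6 of Slit3, 4 of Unc5c, and 3 each of Dcc and Sema3e. Of the 35, 13 belonged to the netrin receptors, 7 to the Slits and 0 to the plexins. These subfamilies had 101, 72 and 72 regions in all, 92, 60 and 49 of them in gene bodies. The second held 3 regions of plexins, including the Plxna3 promoter (chrX:74328646-74329503; folds of 5.70, 3.56 and 4.73 in D1 SC, CS and CC), and 1 each in Efnb3, Ntn1, Sema4d, Slit1 and Unc5c. None of the 35 was in D2 CS, and their absence from the D1 lists is part of the definition. The 3 D2 lists belong to 1 scaffold set and D1 CS and CC to the other, so that cell type and set cannot be told apart here.

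The 6 Unc5d elements of the first group lay 176, 247, 385, 423, 517 and 531 kb from the 5′ end of the gene. The one at 247 kb (chr8:28972539-28973212) was the strongest, with folds of 6.02, 5.84 and 4.96 in D2 SS, SC and CC. The 6 of Slit3 lay between 56.0 and 559 kb, with folds of 2.29 to 4.40. Within Unc5c, the 4 elements at 108, 153, 250 and 258 kb followed the first pattern, with folds of 3.57 to 4.93, and 1 at 136 kb (chr3:141601221-141601703) the second, with folds of 4.00 and 4.97 in D1 CS and CC.

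**Figure D5:**
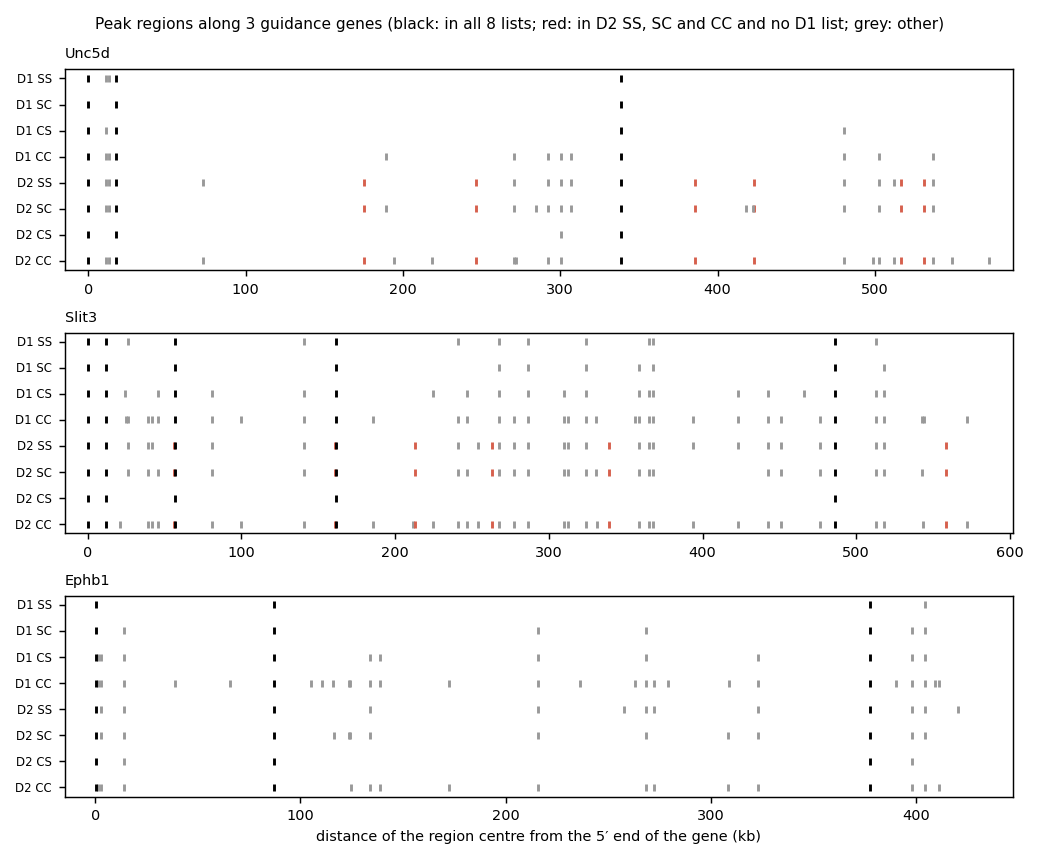
Peak regions of Unc5d, Slit3 and Ephb1 by distance from the 5′ end of the gene (kb), 1 row for each of the 8 lists. Black marks regions found in all lists (3, 5 and 3), red those in D2 SS, SC and CC and no D1 list (6, 6 and none), and grey all others; the rows of D1 SS, D1 SC and D2 CS hold the fewest marks.

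Other genes of the pathway, a list of 51 further ligands, adhesion molecules and downstream genes such as Rac1, Rhoa, Trio and Srgap1, gave the following counts, with no test against the ligands and receptors. Of the 51, 35 had a promoter peak in all 8 lists and 4 in none. Their median log2 ratio stayed between −0.11 and 0.10 in all 11 comparisons. Past 2-fold against SS, counts higher and lower were 5 and 3 of 46 in D1 SC (15.1 and 7.57% of all genes), 8 and 1 of 48 in D1 CS (22.7 and 3.94%), 9 and 0 of 50 in D1 CC (28.4 and 7.03%), 0 and 2 of 46 in D2 SC (3.46 and 5.77%), 3 and 7 of 47 in D2 CS (7.23 and 16.8%) and 0 and 1 of 46 in D2 CC (4.75 and 3.91%). For D1 CC against D1 CS they were 3 and 0 of 50 (8.83 and 3.2%). For D1 against D2 they were 0 and 6 of 46 in SS (2.84 and 21.3%), 3 and 6 of 47 in SC (7.09 and 15.5%), 4 and 1 of 48 in CS (14.3 and 3.54%) and 6 and 0 of 50 in CC (11.4 and 3.85%). Draxin, a secreted guidance protein named after its values were seen, covered 0, 460, 1050 and 1849 bp in D1 and 525, 0, 0 and 0 bp in D2. It was past 2-fold in all of these comparisons except D1 CC against D1 CS, each time with no peak in 1 of the lists. The sizes of these ratios thus depend on the 200 bp added, and the comparisons share lists.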

How the data were processed

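The authors measured open chromatin by ATAC-seq in 26 libraries of D1 and D2 MSNs and deposited 1 peak list for each of the 8 groups. The submitters' processing notes name cutadapt, HISAT, SAMtools and MACS2 and the builds mm10 and GRCm38, with no versions or order. Whether libraries were pooled before peak calling is not given in the sources used here, and the lists hold 0 columns per library. Each row of a deposited list gives a peak's position, the authors' assigned gene and region, a fold enrichment (a ratio over background) and a q-value, all at or below 0.0453. Fold and q-value were used as deposited, within 1 list.

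From the lists, peaks assigned to protein-coding genes were counted and their widths summed per gene (Python 3.11.15, numpy 2.4.6, pandas 2.3.3; figures with matplotlib 3.10.9). Gene lengths and starts came from the RefSeq table, which matched 14492 of 15172 symbols. Covered length was scaled to the list's total over protein-coding genes, 200 bp were added, and 2-fold was the threshold. Peaks overlapping by 1 bp were merged into regions. The scripts were tested on simulated data.

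Members and gene lists were chosen with earlier results of these data known. Named are the genes with the highest and the lowest median covered length of each subfamily, those with no peak, the 3 with the largest ratio in each direction past 2-fold, and the strongest peak of each list; others were named after their values were seen. Alternatives were equal list length (the 27917 strongest peaks), a q-value of at most 1e-05, 1000 bp added, gene position plus 5 kb, and a reciprocal overlap of 50%. The split at 100 kb of gene length was chosen after the data were seen. Sequences are RefSeq promoters (GRCm38.p6). Sequences of gene-body regions were not used here.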

Additional observations from a re-analysis of the deposited data

Results flagged for a closer look

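For 6 results the D1 and the D2 lists both moved past 2-fold, in opposite directions, against their own SS list. How many of all genes did so was not counted. In CS against SS, 22.7% of all genes were 2-fold higher in D1 and 16.8% were 2-fold lower in D2. In SC against SS these shares were 15.1 and 5.77%. With 1 list a group the difference between D1 and D2 was not tested. For CS against SS, the D1 minus D2 difference of log2 ratios was 5.30 for Nrp1 (2.76 in D1, −2.54 in D2), 3.91 for Sema5b (2.87 and −1.04), 3.54 for Sema6b (2.54 and −1.001), 3.23 for Ephb2 (1.62 and −1.61) and 3.13 for Slit2 (1.54 and −1.59). For SC against SS it was 2.04 for Epha10 (1.04 and −1.003). Nrp1, Sema5b, Sema6b and Epha10 had no peak in D1 SS and Nrp1 none in D2 CS, so that their sizes depend on the 200 bp added. D1 CS and D2 CS belong to the other scaffold set than both SS lists, and the D1 list was longer in CS than in SS while the D2 list was shorter. At equal list length the ratios were 0.36 and −1.14 for Ephb2, 1.71 and −0.28 for Sema5b and 1.03 and −1.95 for Epha10, while Sema6b was higher in both (2.65 and 1.11). Nrp1 and Slit2 then had no value in one cell type.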

How the results depend on the processing

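No paired analysis was possible because the lists hold no values per library, and for the same reason no library could be left out. With all lists reduced to the 27917 strongest peaks, promoter peaks were found in 36 genes in D2 SC and 34 in D2 CC, and the share of all genes was not counted. The share of higher genes became 48.1% (from 66.7%) for D1 CC against SS and 49.1% (from 65.1%) for D1 CC against CS, so that the majority turned. Counts past 2-fold, higher and lower, became 11 and 7 for D1 CS, 11 and 4 for D1 CC, 4 and 5 for D2 SC, 10 and 12 for D2 CS, and for D2 CC 7 lower, each against SS. Between cell types they became 6 and 7 in SS, 12 and 8 in SC (from 5 and 16), 6 and 5 in CS, and 10 higher in CC. In SC the larger side thus turned, as it did for all genes (from 7.09 and 15.5% to 18.03 and 8.58%). The shares of all genes for the other counts past 2-fold at this length are given with the comparisons. With 1000 bp added, the counts of guidance genes became 0 and 1 for D1 SC, 4 and 1 for D1 CS, 8 and 0 for D1 CC, 0 and 0 for D2 SC, 0 and 10 for D2 CS, 0 higher for D2 CC, and 1 and 1 for D1 CC against CS. Between cell types they became 4 lower in SS, 1 and 8 in SC, 3 higher in CS, and 0 and 2 in CC. The shares of all genes with 1000 bp added were not computed. With a q-value of at most 1e-05, the counts became 2 lower for D1 CC (9.81% of all genes) and 0 and 0 for D2 SC (3.66 and 6.09%). They became 8 and 1 for D1 CC against CS (11.7 and 2.71%), and 2 lower between cell types in CS (3.46%). With a reciprocal overlap of 50%, 34 regions were in all 8 lists. A q-value of at most 1e-05 also took the share of higher genes to 48.2% (from 56.9%) for D2 SC and 49.1% (from 60.0%) for D2 CC, against SS. Single calls turned sign at equal length (Epha4 and Ntn1 in D1 CC, Sema6b in D2 CS), at the stricter q-value (Efnb3, Plxnb2) and by gene position plus 5 kb (Sema4c). By gene position the share of higher genes in D2 CS was 31.1% (from 38.6%). Adding intergenic rows left every share identical. The intergenic peaks at Plxnb2 carried no gene, so this step is no check on the shares. The cause was not tested; a larger added length lowers every ratio by construction. Without read totals, a missing peak cannot be told from a shallow library, and precision is unknown.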
